A study of Mus musculus with 6 samples.

Results

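The 9 genes described here encode the Toll-like receptors of the cell surface and the proteins that work with them: Tlr1, Tlr2, Tlr4, Tlr5, Tlr6, Cd14, Ly96, Cd180 and Ly86. They were taken by gene family, by symbol, from the 23420 genes counted in each library, and all 9 were present and passed the filter on low counts that left 14388 genes to test. RNA was sequenced from splenic dendritic cells, which take up antigen and present it to T cells. The TBK1-DKO label stood on 3 libraries and the WT label on the other 3. All 6 samples carried the strain label C57BL/6. The labels give an age of 8 weeks in the protocol and of 10 weeks in the sample characteristics. Neither the letters DKO, nor the alleles, the promoter of any Cre, the isolation markers or the number of animals per library are given in the sources used here. TBK1 is a kinase that relays signals of nucleic acid sensors and of TLR4 to interferon regulatory factors. The comparison asks which transcripts differ between these labelled groups in cells for which the labels name no stimulus.

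Toll-like receptors recognise microbial molecules through leucine-rich repeats outside the cell and signal through a cytoplasmic TIR domain. TLR2 pairs with TLR1 to bind triacylated lipopeptides and with TLR6 to bind diacylated ones. TLR4 binds bacterial lipopolysaccharide (LPS) through MD-2, the product of Ly96, after CD14 has handed the LPS over, and CD14 also drives TLR4 into endosomes, where the adaptors TRAM and TRIF lead to TBK1. TLR5 binds flagellin. CD180, also called RP105, resembles TLR4 outside the cell but has no TIR domain, and it is held by MD-1, the product of Ly86. B cells are known for high CD180, and monocytes, macrophages and neutrophils carry CD14, TLR2 and TLR4.

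Reads in genes numbered 45018389 to 47349648 in the TBK1-DKO libraries and 31077585 to 36145508 in the WT libraries. The check of the labels by Tbk1 gave no separation, with 83.9, 79.2 and 83.8 CPM (counts per 1000000 reads in genes, scaled between libraries) in TBK1-DKO 1, 2 and 3 and 90.7, 80.8 and 83.7 CPM in WT 1, 2 and 3. Reads summed over a gene cannot reveal the loss of a few exons, so the groups are named by their labels. Libraries of a group differed by more than sampling noise, and TBK1-DKO 2 and WT 1 stood apart within their groups, with chi-square values per degree of freedom over genes of 38.3 (TBK1-DKO 2 against 1 or 3) and 13 to 14.5 (WT 1 against 2 or 3). The other pairs gave 2.47 (TBK1-DKO 1 against 3) and 2.62 (WT 2 against 3). The labels do not say whether each library had its own animal, and the p-values then reflect only how these samples spread, which may be technical. The RNA is that of all cells isolated, in which fewer cells of a type and less RNA per cell cannot be told apart.

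Of the 9 genes, Tlr2 rose and Tlr4 and Cd14 fell, and the other 6 were not called (quasi-likelihood F test of edgeR, called at an adjusted p under 0.05, with Benjamini-Hochberg adjustment over every gene tested). Over all genes 23.6% were called in either direction, 13.7% higher and 9.9% lower in TBK1-DKO, so 3 calls in 9 genes is close to the background. Cd14 fell by 26.5%, Tlr4 fell by 24.6% and Tlr2 rose by 17.8%. Under the alternatives the share of all genes called in either direction was 23.8% with upper-quartile factors, 23% with DESeq2, 23.3% with limma-voom, 28.4% with the replicate number as a block and 13.9% at an adjusted p under 0.01. It was 17.3%, 30.2% and 17.7% without TBK1-DKO 1, 2 or 3 and 20.6%, 15.7% and 16.9% without WT 1, 2 or 3. Without both libraries that stand apart it was 47.7%, and with offsets for length and GC content 36.8%, or 38% with the block added. The setting without both libraries keeps 2 libraries per group, those that differed least within it. Its spread was thus lowered by the choice. Its adjusted p-values, here and below, do not measure the spread of the groups, and they set the lower end of several ranges over the alternatives. The CPM ranges of the groups did not overlap for 7 of the 9 genes, all but Tlr1 and Tlr5, where 41.1% of all genes tested did not overlap. The median log2 fold change of the 9 genes was -0.18, beside 0.0015 over all genes tested.

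**Figure D1:**
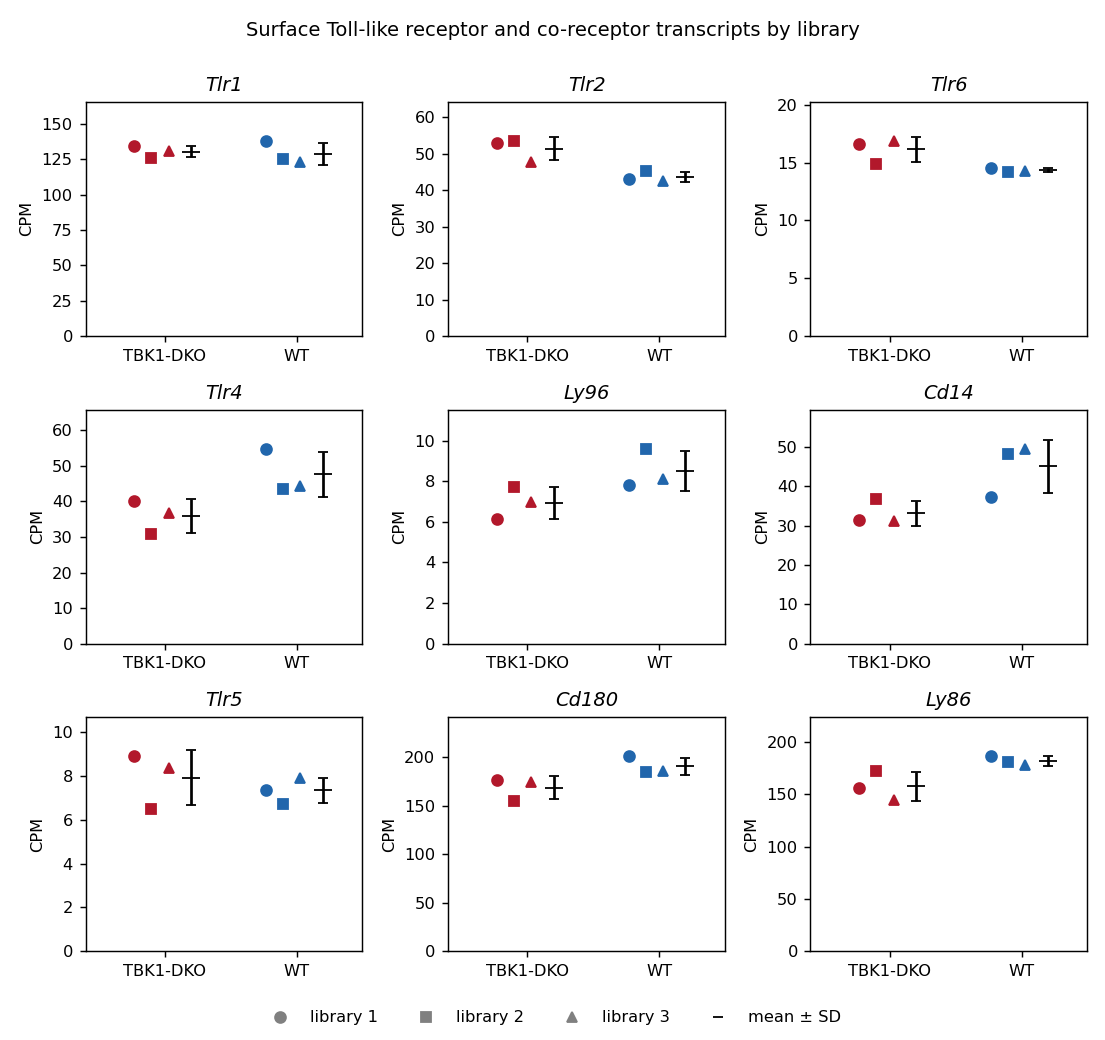
CPM (vertical axes, each starting at 0) of the 9 genes in the 3 TBK1-DKO libraries (red, left) and the 3 WT libraries (blue, right). Symbols give the library number and black bars the mean ± SD of 3 libraries. Tlr2 is higher in every TBK1-DKO library than in any WT library, and Tlr4 and Cd14 are lower.

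Levels per length of transcript spanned a wide range, from Ly86 at the top to Tlr5 at the bottom. On the scale of CPM per kilobase of the longest protein-coding transcript, Ly86 averaged 139 ± 12.1 in TBK1-DKO and 160 ± 3.91 in WT (SD, n = 3 each). Cd180 followed with 63.6 ± 4.50 in TBK1-DKO and 71.9 ± 3.44 in WT, and Tlr1 with 43.1 ± 1.35 in TBK1-DKO and 42.5 ± 2.67 in WT. Genes of the CD180 and MD-1 pair and of the lipopeptide receptor chain TLR1 stood above those of the LPS receptor on this scale. Cd14 averaged 20.2 ± 1.95 in TBK1-DKO and 27.4 ± 4.09 in WT, and Tlr2 17.05 ± 1.03 in TBK1-DKO and 14.5 ± 0.45 in WT. Ly96 averaged 10.97 ± 1.24 in TBK1-DKO and 13.5 ± 1.53 in WT, next to Tlr4 with 8.80 ± 1.17 in TBK1-DKO and 11.7 ± 1.54 in WT. Tlr6, at 4.39 ± 0.30 in TBK1-DKO and 3.90 ± 0.05 in WT, and Tlr5, at 2.08 ± 0.33 in TBK1-DKO and 1.92 ± 0.15 in WT, were lowest. Over all 6 libraries, neighbours in this order were apart except Tlr2 from Ly96 and Ly96 from Tlr4, whose ranges overlapped. In the TBK1-DKO libraries alone Tlr2 was also apart from Ly96. The levels depend on the length chosen. All annotated exonic bases together numbered 3632 for Ly86, 4509 for Cd180 and 3346 for Tlr1, against 1134, 2650 and 3025 in the transcripts used. Levels per exonic length were not computed, and the order of neighbours may differ on that scale.

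**Figure D2:**
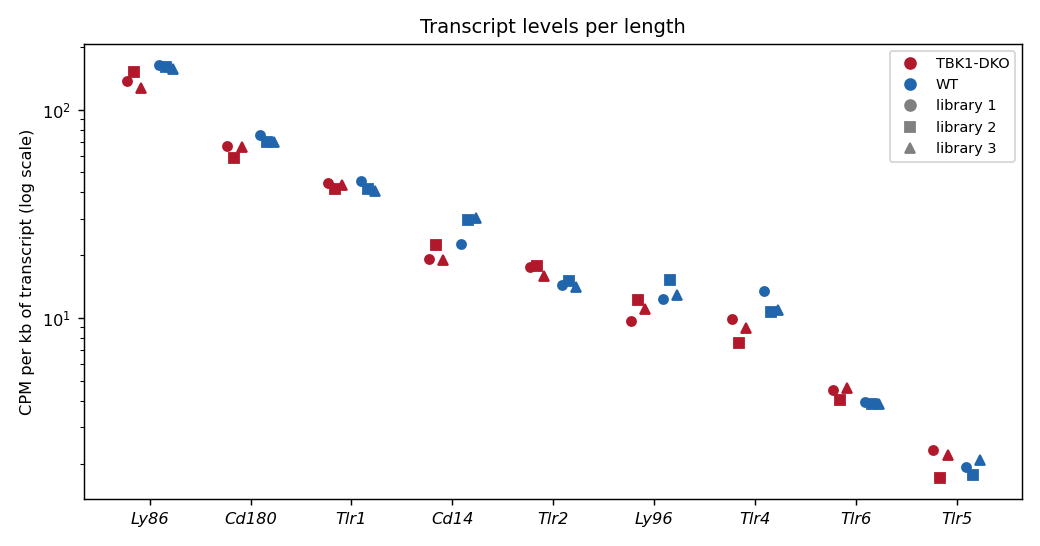
CPM per kilobase of the longest protein-coding transcript (vertical axis, log scale) for the 9 genes, ordered by their mean, in TBK1-DKO (red, left of each gene) and WT (blue, right) libraries, 1 point per library. The order of the genes is shared by the groups, from Ly86 above 127 to Tlr5 at no more than 2.33.

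Tlr2 (ENSMUSG00000027995.10, GRCm38 chromosome 3, 83836272 to 83841767, minus strand) encodes the chain common to both lipopeptide receptors. It had 52.8, 53.5 and 47.8 CPM in TBK1-DKO 1, 2 and 3, against 43.2, 45.1 and 42.5 CPM in WT 1, 2 and 3. All TBK1-DKO libraries lay above all WT libraries. The log2 fold change was 0.24 (SE 0.06, 95% interval 0.09 to 0.38), with adjusted p = 0.0224 in edgeR. That call was lost without TBK1-DKO 1, WT 1, WT 2 or WT 3 (adjusted p = 0.0522 to 0.118), with a range of 0.000682 to 0.118 over all alternatives. The log2 fold change stayed between 0.18 and 0.29 in all of them.

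Tlr1 (ENSMUSG00000044827.10, chromosome 5, 64924679 to 64933563) and Tlr6 (ENSMUSG00000051498.6, chromosome 5, 64952031 to 64960097) encode the partner chains and lie next to each other on the minus strand. Tlr1 had 134, 126 and 131 CPM in TBK1-DKO 1, 2 and 3 and 138, 125 and 123 CPM in WT 1, 2 and 3. Its groups overlapped, with a log2 fold change of 0.02 (interval -0.12 to 0.16), a value whose sign turned with upper-quartile scaling and without TBK1-DKO 1, WT 2 or WT 3. Without both libraries that stand apart it was 0.08 and called (adjusted p = 0.022, edgeR; 0.022 to 0.997 over all alternatives). Tlr6 had 16.6, 14.9 and 16.9 CPM in TBK1-DKO 1, 2 and 3 and 14.5, 14.2 and 14.3 CPM in WT 1, 2 and 3. Although its groups did not overlap, its log2 fold change of 0.17 (SE 0.08) was not called (adjusted p = 0.14, edgeR). It was called without TBK1-DKO 2 (adjusted p = 0.0474), with a range of 0.00682 to 0.352 over the alternatives.

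Counts of Tlr1 and Tlr6 rest on the parts of the genes that differ, which is why sequence of both is shown. Their coding sequences were 77.0% identical over 2339 aligned bases, against 60.7% for Tlr1 and Tlr2. The likeness was uneven, with 65.2%, 58.6%, 94.0% and 90.1% identity in 4 equal parts of the alignment from start to end. The longest identical run was 229 bases, and 8.85% of the 100-base words of the Tlr1 transcript and 7.24% of those of Tlr6 occurred in the other gene. The deposited tables hold a row for reads without a unique alignment, 6.44% to 6.99% of records in TBK1-DKO and 5.43% to 5.74% in WT, and the levels of both genes are uncertain to the extent of the shared words. With levels set on the 100-base words that are not shared, Tlr1 averaged 48.9 CPM per kilobase in TBK1-DKO and 48.3 in WT, and Tlr6 4.86 in TBK1-DKO and 4.32 in WT. None of the 100-base words of the other 7 genes occurred in another gene's transcript. A stretch from the less alike part, on the minus strand of chromosome 5 in GRCm38, from the GENCODE transcripts of Tlr1 (chr5:64926398-64926517) and Tlr6 (chr5:64954689-64954808), shows 54 differences in 120 bases, in capitals. The shared stretch of 120 bases below it is letter for letter the same in Tlr1 (chr5:64925592-64925711) and Tlr6 (chr5:64953883-64954002), from within the longest run.
Tlr1 distinct stretch: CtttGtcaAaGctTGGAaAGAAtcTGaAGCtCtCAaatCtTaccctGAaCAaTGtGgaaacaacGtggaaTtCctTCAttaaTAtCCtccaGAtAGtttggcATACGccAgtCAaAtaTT
Tlr6 distinct stretch: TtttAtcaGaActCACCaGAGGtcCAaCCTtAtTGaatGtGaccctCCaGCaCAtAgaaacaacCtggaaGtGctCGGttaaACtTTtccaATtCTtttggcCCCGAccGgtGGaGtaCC
shared stretch in Tlr1 and Tlr6: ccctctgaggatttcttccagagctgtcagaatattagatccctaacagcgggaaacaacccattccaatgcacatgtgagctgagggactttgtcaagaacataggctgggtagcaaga

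The balance of the lipopeptide receptor chains was read from ratios of CPM within each library, in which scaling cancels. The ratio of Tlr1 to Tlr2 was 2.54, 2.35 and 2.74 in TBK1-DKO 1, 2 and 3, against 3.20, 2.77 and 2.89 in the WT libraries in the same order. The groups did not overlap and differed by -0.22 on the log2 scale (SE 0.09). This gave p = 0.1 in the exact two-sided permutation test, the smallest that 3 against 3 libraries allow, and 0.3 adjusted over the 6 ratios tested. The ratio of Tlr1 to Tlr6 also did not overlap, at 8.09 ± 0.35 in TBK1-DKO and 8.97 ± 0.46 in WT (SD, n = 3 each; exact permutation p = 0.1, adjusted 0.3). Tlr6 to Tlr2 averaged 0.32 ± 0.04 in TBK1-DKO and 0.33 ± 0.01 in WT with overlap (exact permutation p = 0.7, SD, n = 3 each).

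Of the LPS receptor genes, Tlr4 and Cd14 fell, and Ly96 was lower without being called. Tlr4 (ENSMUSG00000039005.13, chromosome 4, 66827584 to 66930284, plus strand), the signalling chain, had 40.2, 30.8 and 36.7 CPM in TBK1-DKO 1, 2 and 3, against 54.9, 43.6 and 44.5 CPM in WT 1, 2 and 3. Every TBK1-DKO library lay below every WT library, and WT 1 was the highest of all. The log2 fold change was -0.41 (SE 0.11, interval -0.66 to -0.16; adjusted p = 0.0246, edgeR). Without both libraries that stand apart, a choice that lowered the spread, it was smaller, at -0.21, and called (adjusted p = 0.00028, edgeR). The call was lost without TBK1-DKO 3 or WT 1 (adjusted p = 0.0561 and 0.0829), in a range of 1.19e-05 to 0.0829 over all alternatives.

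Cd14 (ENSMUSG00000051439.7, chromosome 18, 36725067 to 36726798, minus strand), the carrier of LPS to the receptor, had 31.3, 36.8 and 31.2 CPM in TBK1-DKO 1, 2 and 3 and 37.3, 48.2 and 49.6 CPM in WT 1, 2 and 3. The groups were apart by a narrow margin, between TBK1-DKO 2 and WT 1, and WT 2 and 3 were the highest. The log2 fold change was -0.44 (SE 0.11, interval -0.69 to -0.20; adjusted p = 0.0148, edgeR). It was -0.66 and called without both libraries that stand apart. Without TBK1-DKO 1, TBK1-DKO 3, WT 2 or WT 3 the call was lost (adjusted p = 0.0516 to 0.0688), in a range of 1.35e-17 to 0.0688 over all alternatives. Ly96 (ENSMUSG00000025779.10, chromosome 1, 16688051 to 16709611, plus strand), which encodes the LPS-binding subunit MD-2, had 6.14, 7.71 and 6.95 CPM in TBK1-DKO 1, 2 and 3 and 7.79, 9.61 and 8.12 CPM in WT 1, 2 and 3. The groups did not overlap by a margin of under 0.1 CPM, and the log2 fold change of -0.30 (interval -0.56 to -0.04) was not called (adjusted p = 0.0934, edgeR). It was called without TBK1-DKO 2 (adjusted p = 0.021; 0.000176 to 0.307 over all alternatives). Without both libraries that stand apart it was -0.45 and called.

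The ratios within the LPS receptor varied widely between libraries, and 3 against 3 libraries could not have given p under 0.1. The ratio of Cd14 to Tlr4 was 0.778, 1.195 and 0.852 in TBK1-DKO 1, 2 and 3, against 0.680, 1.104 and 1.115 in the WT libraries in the same order (log2 difference -0.03, SE 0.30; exact permutation p = 1). The ratio of Ly96 to Tlr4 averaged 0.20 ± 0.05 in TBK1-DKO and 0.18 ± 0.04 in WT (SD, n = 3 each; exact permutation p = 0.7). Both ratios overlapped between the groups. In TBK1-DKO 2 Cd14 was the highest and Tlr4 the lowest of the group, and in WT 1 the reverse held.

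Among the genes described here, the places of TBK1-DKO 2 and WT 1 in their groups mostly differed between longer and shorter transcripts. Whether this goes with length itself was not tested. Among the 6 genes whose longest protein-coding transcript measured 2650 to 4077 bases, TBK1-DKO 2 was the lowest of its group for 5 genes, Tlr2 being the exception, and WT 1 the highest of its group for 4. Among the 3 genes with transcripts of 632 to 1641 bases, Ly96, Ly86 and Cd14, TBK1-DKO 2 was the highest of its group for all 3, and WT 1 was the lowest for 2. With the trends of each library along transcript length and GC content taken out, the log2 fold changes were 0.23 for Tlr2, -0.36 for Tlr4 and -0.48 for Cd14, all called. In the same fit Tlr6 (0.18), Cd180 (-0.17) and Ly86 (-0.19) were called as well, beside 36.8% of all genes.

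Cd180 and Ly86, the receptor without a TIR domain and its partner, were both lower in every TBK1-DKO library and neither was called. Cd180 (ENSMUSG00000021624.9, chromosome 13, 102693558 to 102739629, plus strand) had 176, 155 and 175 CPM in TBK1-DKO 1, 2 and 3 and 201, 185 and 186 CPM in WT 1, 2 and 3. Its groups did not overlap, and its log2 fold change of -0.18 (SE 0.07) was not called (adjusted p = 0.0894, edgeR; 0.00213 to 0.216 over all alternatives). Without both libraries that stand apart it was smaller, at -0.09, and called (adjusted p = 0.0082, edgeR), and it was also called without TBK1-DKO 2 (adjusted p = 0.0496) and with upper-quartile factors (adjusted p = 0.0497). Of its annotated exonic bases, 4.04% overlap Mast4 on the other strand, and the strand setting of the counts is not given in the sources used here. Ly86 (ENSMUSG00000021423.6, chromosome 13, 37345208 to 37419036, plus strand) had 155, 172 and 145 CPM in TBK1-DKO 1, 2 and 3 and 186, 181 and 177 CPM in WT 1, 2 and 3. No TBK1-DKO library reached the WT range. The log2 fold change of -0.21 (SE 0.07) missed the threshold (adjusted p = 0.0551, edgeR) and passed it in 9 of 17 alternatives, DESeq2 (adjusted p = 0.0366) and scaling by size factors (adjusted p = 0.0495) among them. The adjusted p ranged from 2.43e-10 to 0.206. The ratio of Ly86 to Cd180 averaged 0.94 ± 0.15 in TBK1-DKO and 0.95 ± 0.03 in WT (SD, n = 3 each; exact permutation p = 0.9), a log2 difference of -0.03 (SE 0.13).

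Tlr5 (ENSMUSG00000079164.8, chromosome 1, 182954788 to 182976044, plus strand), the flagellin receptor, had 8.91, 6.50 and 8.38 CPM in TBK1-DKO 1, 2 and 3 and 7.38, 6.75 and 7.91 CPM in WT 1, 2 and 3. The groups overlapped, with a log2 fold change of 0.11 (interval -0.17 to 0.39). That value was 0.02 without TBK1-DKO 1, 0.07 without TBK1-DKO 3, 0.03 without WT 2 and 0.21 without TBK1-DKO 2, none of them called. It was 0.23 and called without both libraries that stand apart (adjusted p = 0.0494, edgeR; 0.0494 to 0.941 over all alternatives). Tlr5 had 232 to 421 reads per library, and its interval was the widest of the 9 genes.

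**Figure D3:**
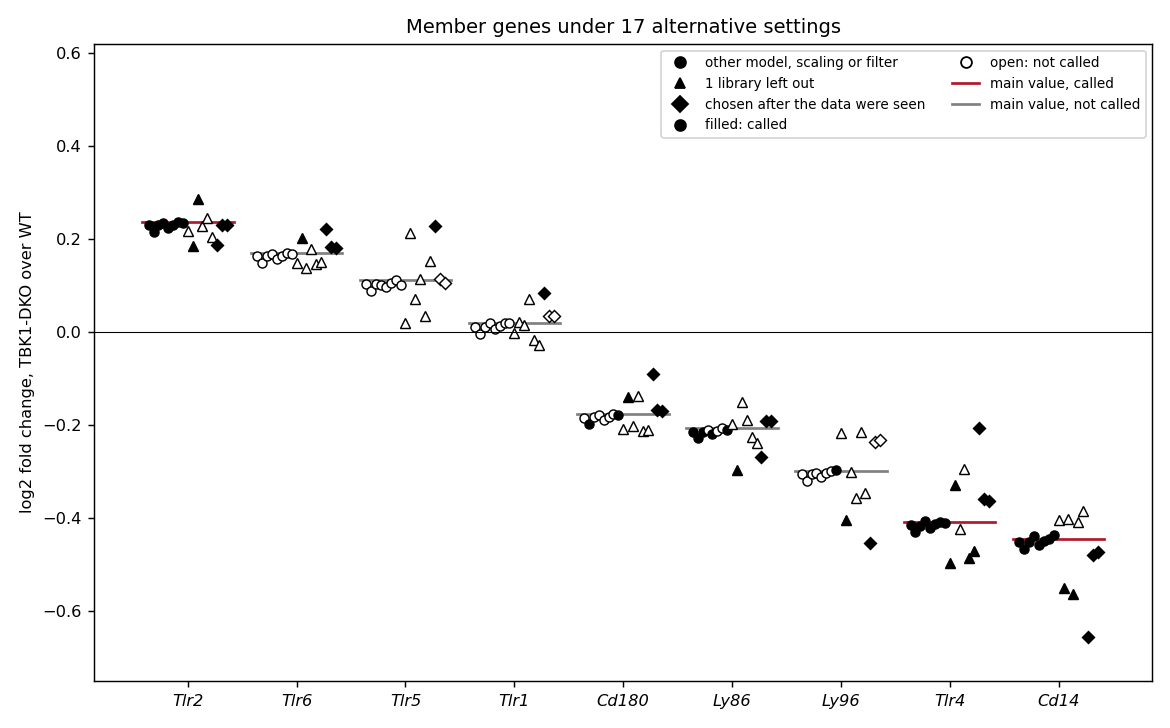
Log2 fold change of TBK1-DKO over WT (vertical axis) for the 9 genes under 17 alternatives, with lines for the reported values, filled symbols where the adjusted p was under 0.05 and open symbols elsewhere. Tlr2 stays between 0.18 and 0.29, Tlr4 between -0.50 and -0.21 and Cd14 between -0.66 and -0.38, and each of the 9 genes has filled and open symbols.

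In a list of 33 adaptors, kinases, ubiquitin ligases, brakes, chaperones and ligand carriers that work with the receptors, 5 genes rose and 28 were not called. Over all genes 13.7% were called higher, so the count of the list is near the background. In the list 0 genes fell by edgeR, DESeq2 or limma-voom, with 1 at an unadjusted p under 0.05 by edgeR. Other settings called falls too, with 11 higher and 6 lower without both libraries that stand apart, 8 higher and 5 lower with the length and GC offsets, 5 higher and 2 lower without TBK1-DKO 2, and 6 higher and 1 lower without WT 1. In the same order these settings called 47.7%, 36.8%, 30.2% and 20.6% of all genes in either direction. The median log2 fold change of the list was -0.0047, close to that of all genes. Among the adaptors, Ticam1, which encodes TRIF, and Ticam2, which encodes TRAM, rose. Ticam2 had 34.1, 33.2 and 34.1 CPM in TBK1-DKO 1, 2 and 3 and 29.6, 28.5 and 29.4 CPM in WT 1, 2 and 3. Its groups were apart, with a log2 fold change of 0.21 (SE 0.06; adjusted p = 0.0241, edgeR). Ticam1 averaged 42.9 ± 0.63 CPM in TBK1-DKO and 37.6 ± 0.72 CPM in WT (SD, n = 3 each), a log2 fold change of 0.19 (SE 0.06). Its call (adjusted p = 0.0317, edgeR) was lost with DESeq2 (adjusted p = 0.0538), upper-quartile scaling (adjusted p = 0.0561), no filter on low counts (adjusted p = 0.0676) and length and GC offsets (adjusted p = 0.0516), in a range of 0.000848 to 0.183. Both calls were lost without TBK1-DKO 1, TBK1-DKO 3, WT 2 or WT 3 (adjusted p = 0.0781 to 0.183). Myd88 encodes an adaptor of the Toll-like receptors of the cell surface, and Tirap one that brings it to TLR2 and TLR4. Myd88 and Tirap had log2 fold changes of 0.15 (SE 0.06) and 0.09 (SE 0.09) and were not called.

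Of the other genes that rose, Lbp stood out in size. Lbp encodes the LPS-binding protein, a serum protein known mainly from the liver, which extracts LPS and passes it to CD14. It had 10.9, 11.3 and 10.9 CPM in TBK1-DKO 1, 2 and 3 and 4.01, 3.75 and 5.09 CPM in WT 1, 2 and 3. No library of either group came near the other group. The fold was 2.58 (interval 2.16 to 3.08; log2 fold change 1.37, SE 0.11), with adjusted p = 2.23e-05 in edgeR, and the call held in all 17 alternatives. It rested on 491 to 517 reads per TBK1-DKO library and 126 to 171 per WT library.

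Tnip1, a partner of the ubiquitin-editing brake A20, rose by 0.30 on the log2 scale (SE 0.07; 133 ± 8.45 CPM in TBK1-DKO and 108 ± 6.19 CPM in WT, SD, n = 3 each). Without WT 2 this call was lost (adjusted p = 0.0576, edgeR; 9.35e-07 to 0.0576 over all alternatives), and without both libraries that stand apart the value was 0.19. Tab1, a subunit of the TAK1 kinase complex, rose by 0.25 (SE 0.07). Its call was lost without TBK1-DKO 2, TBK1-DKO 3 or any of the WT libraries (adjusted p = 0.0529 to 0.0905; 0.00545 to 0.0905 over all alternatives), and the value was 0.15 without both libraries that stand apart. Tbk1 itself, at a log2 fold change of -0.05 (SE 0.06), was among the genes not called.

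**Figure D4:**
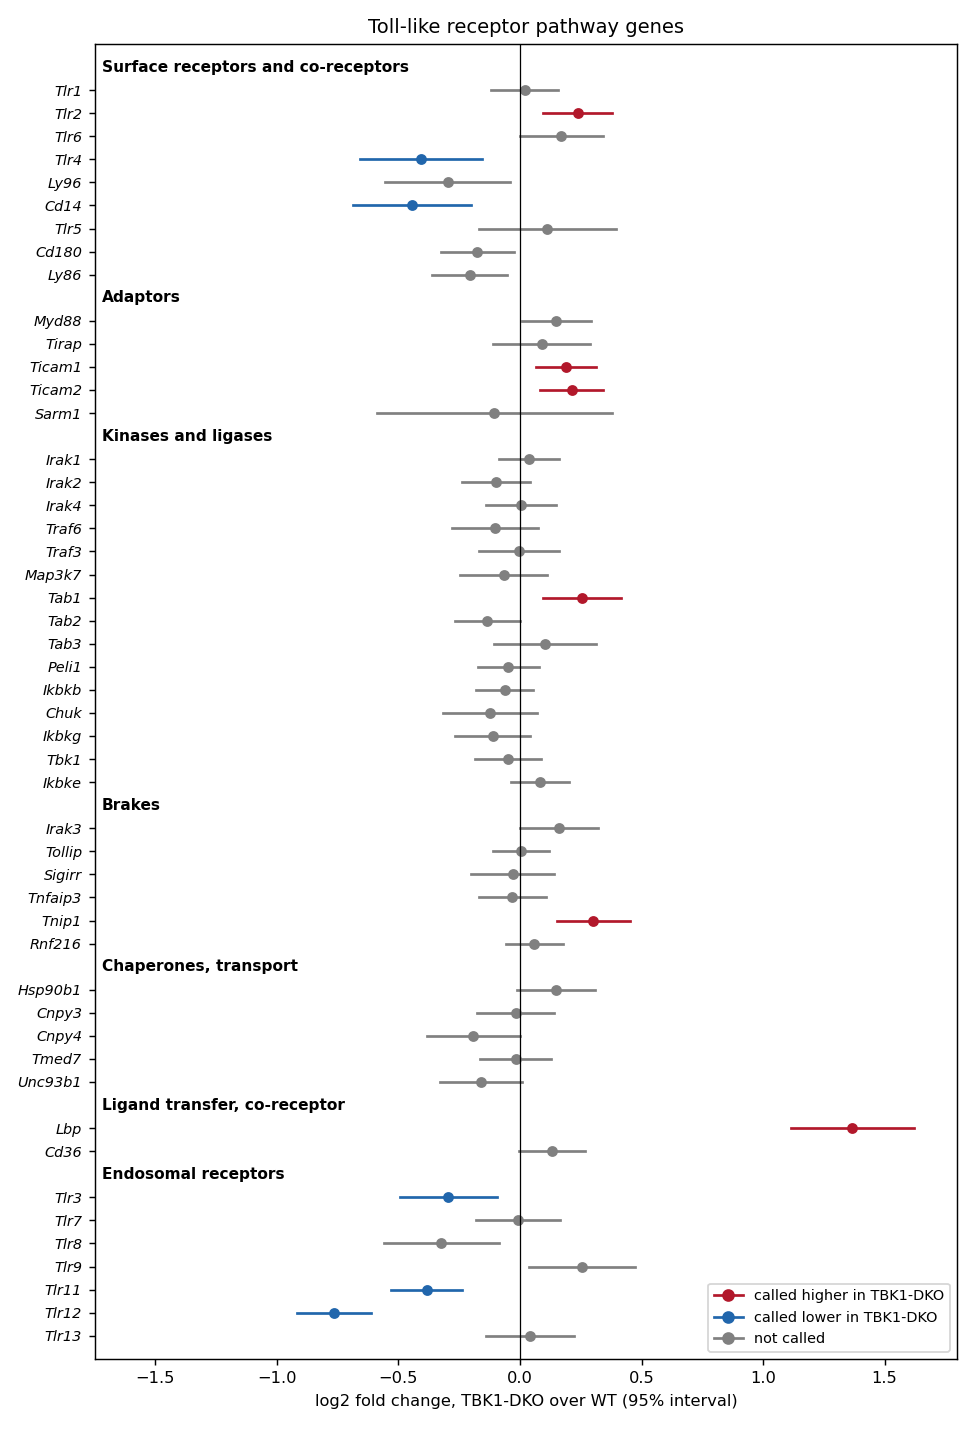
Log2 fold change of TBK1-DKO over WT with 95% intervals (horizontal axis) for the 9 surface genes, the 33 genes of adaptors, kinases, brakes, chaperones and ligand carriers, and the 7 endosomal receptors. Red marks genes called higher, blue genes called lower and grey genes not called. Lbp at 1.37 lies apart from the rest, and Tlr12 at -0.77 is the lowest.

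Of the 7 endosomal receptors 3 fell, Tlr3, Tlr11 and Tlr12, and 4 were not called, with 0 higher by edgeR, DESeq2 or limma-voom and 1 at an unadjusted p under 0.05 by edgeR. Over all genes 9.9% were called lower and 23.6% in either direction. Without both libraries that stand apart 3 of the 7 were called higher and 4 lower, and without TBK1-DKO 2 the calls were 1 higher and 4 lower. In the same order these settings called 47.7% and 30.2% of all genes in either direction. The 7 endosomal receptors had a median log2 fold change of -0.29, beside -0.18 for the surface genes. Tlr12, a receptor of Toxoplasma profilin with Tlr11, averaged 18.7 ± 0.10 CPM in TBK1-DKO and 31.7 ± 1.88 CPM in WT (SD, n = 3 each; log2 fold change -0.77, SE 0.07). Tlr11 fell by 0.38 (SE 0.07) and Tlr3, the receptor of double-stranded RNA, by 0.29 (SE 0.09). The calls of Tlr11 and Tlr12 held in all 17 alternatives, and that of Tlr3 was lost without TBK1-DKO 3, WT 1 or WT 2 (adjusted p = 0.0619 to 0.114, edgeR; 0.0018 to 0.114 over all alternatives). For Tlr3 the log2 fold change was -0.16 without both libraries that stand apart, and called. Whether the surface and endosomal genes differ was not tested.

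Markers of the labelled cell type were present in every library. Flt3 had 146 to 153 CPM over all 6 libraries and was not called. Itgax had 333 to 353 CPM in TBK1-DKO and 381 to 410 CPM in WT. It fell, with a log2 fold change of -0.20 (SE 0.06; adjusted p = 0.0298, edgeR). Zbtb46 rose, with a log2 fold change of 0.35 (SE 0.08; adjusted p = 0.011, edgeR). Of the 6 conventional dendritic cell markers 1 rose, 1 fell and 4 were not called. Markers of other cells that carry the 9 genes were also present in every library, and many of these moved with the label too. Of 12 red pulp macrophage markers 11 fell and 1 was not called, with a summed level of 5607 to 5932 CPM in TBK1-DKO and 8083 to 8723 CPM in WT. The most abundant of them were Hmox1 (log2 fold change -0.53), Vcam1 (-0.62) and Slc40a1 (-0.60). Of 10 B cell markers 4 fell and 6 were not called, with sums of 3617 to 3715 CPM in TBK1-DKO and 4209 to 4350 CPM in WT. The most abundant, Cd79a, Cd79b and Cd22, had log2 fold changes of -0.27, -0.14 and -0.04 and were not called. Of 12 neutrophil markers 11 rose and 1 was not called, with sums of 6056 to 6927 CPM in TBK1-DKO and 2638 to 2931 CPM in WT. The most abundant, S100a9, Ngp and Ltf, which encode proteins of neutrophil cytosol and granules, rose by 1.15, 1.30 and 1.38 on the log2 scale. Monocyte markers went both ways, with 3 higher, 2 lower and 3 not called, and sums of 1331 to 1397 CPM in TBK1-DKO and 1113 to 1247 CPM in WT. The most abundant were Chi3l3 (log2 fold change 0.99, called), Treml4 (-0.52, called) and Fn1 (0.29, not called). Chi3l3 averaged 471 CPM in TBK1-DKO and 238 CPM in WT, beside list means of 1362 and 1168 CPM. The rise of Chi3l3 alone was thus larger than that of the summed monocyte list. None of the defining markers of these 4 lists was at 0.

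On the log2 scale of the summed levels, the macrophage list differed by -0.55, the B cell list by -0.22, the monocyte list by 0.22 and the neutrophil list by 1.19. Beside these stand log2 fold changes of -0.41 for Tlr4, -0.44 for Cd14 and 0.24 for Tlr2, which were called. Those not called were -0.18 for Cd180, -0.21 for Ly86, -0.30 for Ly96, 0.02 for Tlr1, 0.11 for Tlr5 and 0.17 for Tlr6. Among the dendritic cell lists, type 1 conventional markers fell in 6 of 8 cases with 2 not called, plasmacytoid markers fell in 7 of 8 with 1 not called, and type 2 conventional markers rose in 3 of 8, fell in 2 and were not called in 3. The part of these cell types in the levels of the 9 genes was not tested.

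**Figure D5:**
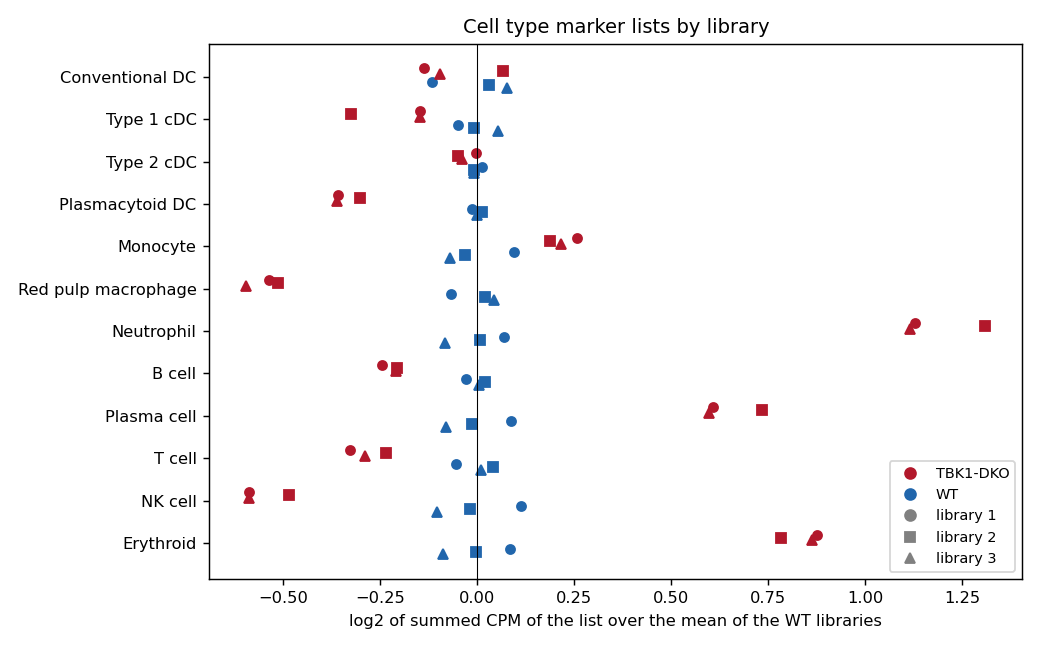
Log2 of the summed CPM of each marker list over the mean of the WT libraries (horizontal axis) for 12 cell type lists, with 1 point per library, TBK1-DKO in red above WT in blue. Neutrophil, erythroid, plasma cell and monocyte lists are higher in all TBK1-DKO libraries than in any WT library. Macrophage, NK cell, plasmacytoid, type 1 conventional, T cell and B cell lists are lower. The conventional and type 2 conventional lists overlap.

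For each of the 9 genes the gene with the most similar pattern over the 6 libraries was sought among 10711 others with a mean of at least 5 CPM, by the root-mean-square difference of mean-centred log2 CPM. Such matches share libraries and depth and are a description only. Cd14 ran closest to Sh3bgrl3 (difference 0.017, against a range of 0.66 for Cd14 itself), which had 232, 274 and 234 CPM in TBK1-DKO 1, 2 and 3 and 275, 365 and 374 CPM in WT 1, 2 and 3. Tlr4 ran closest to Mcts2 (0.030 against a range of 0.82), Tlr2 to Serhl (0.021 against 0.33) and Cd180 to March1 (0.014 against 0.38). The nearest genes of the others were Ints8 for Tlr1, Klf9 for Tlr5, Eif4g1 for Tlr6, Tomm40l for Ly96 and Rab11a for Ly86, at differences of 0.0072 to 0.054. No gene of the list of 9 was nearest to another.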

How the data were processed

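The authors deposited 1 table per sample with raw read counts per gene symbol, not scaled and not pooled. The notes of the submitters on processing name mm10 as build and DESeq2, HTSeq, TopHat and TopHat2 as tools. Their versions, the annotation and the strand setting were not stated. Rows that name no gene held 9.96% to 10.7% of records in TBK1-DKO and 8.20% to 8.67% in WT and were left out. The deposited counts went into edgeR 4.0.16 (R 4.3.3): filterByExpr (minimum count 10), TMM factors, robust quasi-likelihood F test without covariates, Benjamini-Hochberg adjustment over 14388 genes. SEs were derived from the F statistic, and CPM are counts scaled to 1000000 reads with those factors. The fit was tested on simulated data. Groups came from the sample titles. Positions and sequences came from GENCODE M21 (GRCm38, the assembly of mm10). Of the symbols, 21785 matched directly and 1278 through a RefSeq synonym. Ratios were compared by exact permutation tests.

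The 9 genes and the lists were chosen with earlier results of these data known. Named genes were the 9 genes, Tbk1, called genes of the pathway lists and the adaptors Myd88, Tirap, Ticam1 and Ticam2. The nearest patterns and up to 3 markers per list with the highest mean CPM were also named. Flt3, Itgax and Zbtb46 were added after their values were seen. Alternatives were DESeq2 1.42.0, limma-voom (limma 3.58.1), other scalings, filters, dispersions and thresholds, the replicate number as a block, and each library left out. A further 3 were chosen after seeing the data: leaving out TBK1-DKO 2 and WT 1 together, length and GC offsets (lowess trends, 99.1% of genes tested), and those with the block. Figures were drawn with matplotlib 3.10.9.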

Additional observations from a re-analysis of the deposited data

How the results depend on the processing

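The count of the 9 genes called, 3 as reported, changed with the settings. It was 5 with upper-quartile factors and 6 with length and GC offsets with or without the replicate block. Without TBK1-DKO 2 and WT 1 it was 9, beside 47.7% of all genes, in a setting whose spread was lowered by the choice of libraries. At an adjusted p under 0.01 it was 0 by edgeR, 2 by DESeq2 and 0 by limma-voom, and at an unadjusted p under 0.05 by edgeR it was 7. For the unadjusted p, and for DESeq2 and limma-voom at 0.01, the share of all genes called is not given here. Those counts therefore stand without a background. Leaving out 1 library gave 1 to 7. Over all genes 3402 were called, against 6897 without both libraries, 5246 with the offsets, 5422 with the offsets and the block, 1996 at 0.01, and 2308 to 4352 with 1 library left out. The 33 pathway genes gave 5 calls, against 17, 13 and 2 without both libraries, with the offsets and at 0.01, and 1 to 7 with 1 library left out. The 7 endosomal genes gave 3, against 7 without both libraries and 2 to 5 with 1 left out. The cause of these shifts was not tested.

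Whether the replicate numbers pair the libraries remained unsettled. Deviations of same-numbered libraries correlated at 0.27, 0.22 and -0.11. TBK1-DKO 1 correlated best with WT 1 and TBK1-DKO 2 with WT 2, but TBK1-DKO 3 correlated best with WT 1. With the replicate block 4086 genes were called, among them 6 of the 9 genes (Cd180, Ly86 and Ly96 beside the reported 3) and 5 endosomal genes, 1 of them higher. Tlr1 turned sign to -0.0028 with upper-quartile factors and ranged from -0.027 to 0.071 with 1 library left out. With 1 library left out, differences of the 6 ratios ranged within 1 SD of the reported ones, so that those of Tlr6 to Tlr2, Ly96 to Tlr4, Cd14 to Tlr4 and Ly86 to Cd180 took either sign.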
